A study of Arabidopsis thaliana with 9 samples.

Results

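The Aux/IAA and GH3 genes are families of early auxin response genes in Arabidopsis thaliana, and they were followed here in whole seedlings exposed to salt or to the stress hormone abscisic acid (ABA). The set was defined by family and not by any measured value: it holds 33 genes, namely 28 Aux/IAA genes and 5 GH3 genes (GH3.1, GH3.2, GH3.3, GH3.5 and GH3.6), of 25426 loci that the array probes could be matched to. Of the 33, 31 had a matched probe, and 26 (22 Aux/IAA and 4 GH3) were bright enough to be tested, which required that every array of 1 or more groups stood well above background, among 23058 tested genes. IAA9 and IAA32 had no matched probe and were not analysed here.

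Aux/IAA proteins are short-lived nuclear repressors that bind the auxin response factors (ARFs) and recruit TOPLESS corepressors. Auxin joins an Aux/IAA protein to a TIR1/AFB receptor, the repressor is degraded, and the ARF is set free to activate its targets, which include the Aux/IAA genes themselves. GH3 enzymes couple auxin to amino acids and so lower the amount of free hormone, and their genes, like the Aux/IAA genes, are known to be switched on within minutes of auxin treatment.

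The samples were wild-type Columbia (Col-0) plants of 4 weeks, harvested whole with root and shoot. They had received 150 mM NaCl for 6 h (3 arrays), 10 µM ABA for 6 h (3 arrays) or water for 6 h without stress (control, 3 arrays). No auxin was applied in any group. Each treatment was harvested as a single pool and the replicates are portions of that pool, so the p-values measure the spread between portions and not between separately grown plants. In RNA from whole seedlings, fewer cells of a type and less RNA per cell cannot be told apart.

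Values are log2 signals of a one-colour Agilent array, quantile-normalized over the 9 arrays, and a difference of 1 is a 2-fold change. A gene was called changed at a limma adjusted p under 0.05 together with a change of at least 2-fold. Between 68.9% and 72.0% of the probes on an array were well above the background. The 3 NaCl arrays lay on a slide of their own and were scanned in another session, 235 days from the control arrays. Slide, session and NaCl treatment thus cannot be told apart. The ABA and control arrays also shared no slide, so slide and ABA treatment cannot be told apart either. The treatments registered in ABA-regulated genes. RD29B, a desiccation-induced gene at the background on all control arrays, was at least 7.10-fold higher in NaCl seedlings and at least 9.35-fold higher in ABA seedlings, taken against the lowest signal called above background on each control array. HAI1, a protein phosphatase of ABA signalling, rose by 4.73 in NaCl seedlings and by 5.55 in ABA seedlings. RAB18, a dehydrin, rose by 3.78 in NaCl seedlings, and its difference of 2.09 in ABA seedlings did not pass the test.

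Markers of root, shoot and flower differed between the arrays. Root markers summed to between 7429 and 36947 intensity units in NaCl seedlings, to between 467 and 8556 in ABA seedlings and to between 691 and 13571 in control seedlings. The highest sum in each group came mostly from the marker BGLU23, which read between 7.01 and 13.67 on the control arrays. Of the 10 root markers, 6 were tested. With NaCl 5 of these had a positive difference and NRT2.1 a negative one (-1.76), and 1 was called. IRT1 was at the background on all 9 arrays. COBL9, a root hair gene, was called up with NaCl, with signal above background on all 3 NaCl arrays and on 1 control array. It was thus tested only through its NaCl arrays. The 7 shoot markers summed to between 528746 and 566157 in NaCl seedlings, to between 961006 and 985200 in ABA seedlings and to between 857105 and 991618 in control seedlings, and 3 of them (BCA1, PSBS and RBCS1A) fell with NaCl. Of the 5 floral markers, only PISTILLATA (PI) was tested, and only through its NaCl arrays. PI read 5.50, 4.89 and 11.04 on the NaCl arrays, 4.34, 2.26 and 5.25 on the ABA arrays and 2.81, 6.67 and 1.52 on the control arrays. PI was far higher on NaCl replicate 3 than on any other array, and control replicate 2 was next. The part of these markers in the results below was not tested.

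With NaCl, 4 of the 26 tested members were called. IAA14, IAA13 and GH3.5 rose and IAA5 fell, while 22 did not pass the test. This is 15.4% of the members, against 23.3% of all tested genes (9.92% up and 13.4% down), so the share of members was not above the background. The median member differed by 0.14 from control, against -0.11 for all genes. The NaCl and control arrays did not overlap for 13 members (7 higher and 6 lower), against 53% of all genes (22.7% higher and 30.2% lower).

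IAA14 (AT4G14550), also known as SOLITARY-ROOT, encodes a repressor of lateral root initiation. Its signal was 9.28, 9.72 and 9.80 on the NaCl arrays, 9.04, 9.21 and 9.28 on the ABA arrays and 7.13, 7.19 and 7.69 on the control arrays. Every NaCl and every ABA array lay above every control array. The difference was 2.26 ± 0.21 in NaCl seedlings against control (SE, n = 3 each, limma adjusted p = 0.000321), a 4.80-fold change. In ABA seedlings it was 1.84 ± 0.21 (adjusted p = 0.00826), a 3.57-fold change. IAA14 was the only member called with both treatments. Both comparisons use the same control arrays, so these calls are not separate evidence of a rise.

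IAA13 (AT2G33310) belongs with IAA12 (BODENLOS, AT1G04550) to a pair of repressors known from embryo and root formation. Its signal was 12.74, 13.71 and 12.85 on the NaCl arrays, against 11.44 and 11.61 on control replicates 2 and 3, since the spot of control replicate 1 was marked as faulty and left out. All 3 NaCl arrays were above both control values. The difference was 1.58 ± 0.34 (SE, n = 3 NaCl and 2 control arrays, limma adjusted p = 0.0111), a 2.99-fold change. Without control replicate 2, which left a single control value, the adjusted p was 0.0526. IAA12 differed in the same direction, by 1.37 ± 0.48, and was not called (adjusted p = 0.0518). That difference depended on control replicate 1 (8.06, against 10.02 and 9.90 on the other control arrays), without which it was 0.74. IAA12 was called up in 7 of 26 alternative analyses, and also in the fit of all probes described below (adjusted p = 0.0495).

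GH3.5 (AT4G27260), or WES1, encodes an enzyme that conjugates auxin and also accepts salicylic acid. It read 10.89, 11.21 and 11.61 on the NaCl arrays and 9.31, 10.09 and 10.33 on the control arrays, with no overlap. GH3.5 rose by 1.33 ± 0.29 (SE, n = 3 each, limma adjusted p = 0.00853), or 2.51-fold.

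IAA5 (AT1G15580), a member of the group of strongly auxin-inducible repressors, was the only member called down. Its signal was 6.25, 6.19 and 7.01 on the NaCl arrays and 7.78, 8.84 and 8.34 on the control arrays. The groups did not overlap, and IAA5 fell by 1.84 ± 0.55 with NaCl (SE, n = 3 each, limma adjusted p = 0.0312), a 3.57-fold decrease. This call was the least stable of the 4. It was lost without control replicate 2 (adjusted p = 0.0903), control replicate 3 (0.0737), NaCl replicate 1 (0.0828) or NaCl replicate 2 (0.0931).

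**Figure D1:**
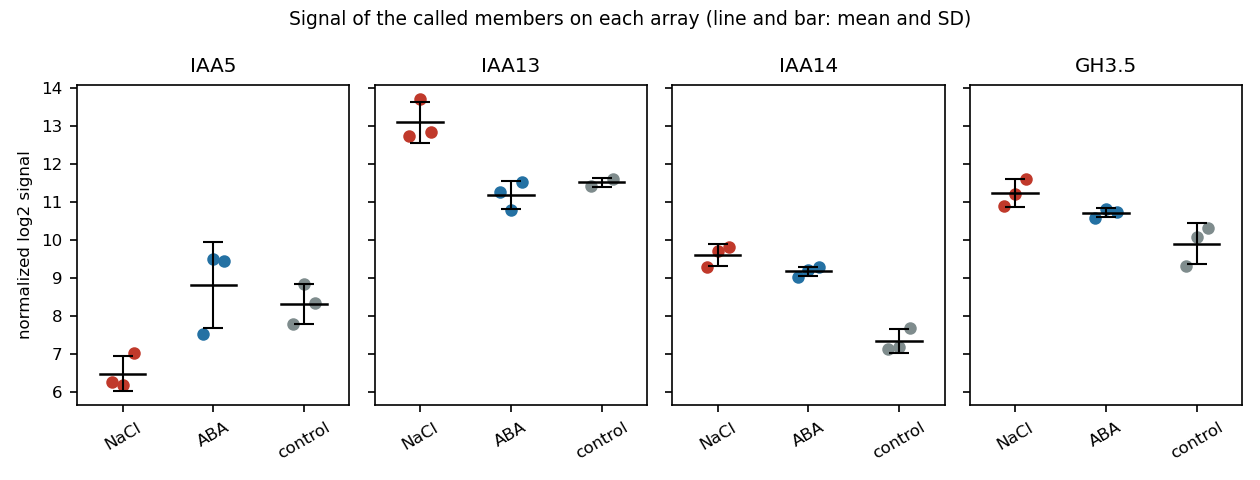
Normalized log2 signal of the 4 members called in any comparison, on the NaCl, ABA and control arrays (points, 1 per array; line and bar, mean and SD). IAA14 is higher on all NaCl and ABA arrays than on the control arrays, IAA13 and GH3.5 on all NaCl arrays, and IAA5 is lower on all NaCl arrays than on the ABA and control arrays.

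The remaining Aux/IAA genes fell on both sides of 0 with NaCl. Of the 22 that were tested, 11 had a positive and 11 a negative difference, with a median of 0.04. The lower values included several genes known for strong induction by auxin: IAA3 (SHY2, AT1G04240) differed by -1.29 (adjusted p = 0.0749), IAA4 by -1.05 (0.153), IAA1 by -0.97 (0.116) and IAA17 (AXR3) by -0.72 (0.0605). The IAA3 value depended on control replicate 2 (13.23, against 11.25 and 11.54), without which it was -0.68. IAA17 had 2 control values, since the spot of control replicate 2 was marked as faulty and left out. All NaCl arrays were below all control arrays for IAA3, IAA1 and IAA17, but not for IAA4. Other auxin-inducible members did not share this direction, since IAA19 (MSG2), which acts in tropic growth, differed by 0.53 and IAA6 by 0.39. The arrays of each group were widely spread for these. IAA19 had the highest SD of any member among the control arrays (1.45), with 7.92, 9.89 and 10.75, and read 8.86, 10.20 and 11.08 on the NaCl arrays.

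Among the other Aux/IAA genes, IAA18, known from embryonic patterning, had a difference of 0.49 ± 0.17 (adjusted p = 0.0507), well under 2-fold. Another of its probes had a difference of 0.97 (adjusted p = 0.00238 in the fit of all probes), also under 2-fold. The remaining probe of IAA18 differed by 0.27 (adjusted p = 0.316 in that fit), with control replicate 2 left out as faulty. IAA2 (AT3G23030) had the brightest probe of the family, with 14.13, 14.90 and 14.65 on the NaCl arrays, 14.09, 14.77 and 14.83 on the ABA arrays and 14.88, 15.15 and 15.25 on the control arrays. It differed by -0.53 with either treatment, and neither difference passed the test. IAA16, IAA10, IAA7, IAA27, IAA26, IAA28, IAA29, IAA11, IAA8 and IAA30 lay between -0.42 and 0.75.

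Of the 4 tested GH3 genes, GH3.5 alone passed the test with salt. GH3.3 (AT2G23170), which takes part with GH3.5 and GH3.6 in adventitious rooting, read 11.38, 10.18 and 11.97 on the NaCl arrays and 9.31, 10.12 and 10.20 on the control arrays. NaCl replicate 2 lay within the control range, and the difference of 1.29 ± 0.52 did not pass the test (adjusted p = 0.0825). GH3.6 (DFL1) differed by -0.12 ± 0.30 (95% interval -0.82 to 0.57).

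GH3.2 (YDK1, AT4G37390) had the dimmest probe among the tested members. It read 5.13, 4.95 and 7.92 on the NaCl arrays, 2.39, 4.90 and 4.38 on the ABA arrays and 3.77, 4.15 and 3.32 on the control arrays. Above-background signal was called on all 3 NaCl arrays, on 1 ABA array and on no control array, so GH3.2 was tested only through its NaCl arrays. The NaCl mean was 4.35 times the lowest signal called above background on the control arrays, or the control reading where higher. That ratio was 2.24 without NaCl replicate 3, so it is not a firm lower limit. With normexp background correction the log2 difference was 0.73. The difference did not pass the test (adjusted p = 0.0764), and NaCl replicate 3, the portion with the highest floral markers, was far above the other NaCl arrays. GH3.1 was not tested. It was above the background on 2 of the 3 NaCl arrays and on no ABA or control array.

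Of the Aux/IAA genes that lack a typical degron and are thus not degraded readily with auxin, only IAA30 was tested. It read 5.80, 6.98 and 5.74 on the NaCl arrays, 5.47, 4.48 and 6.42 on the ABA arrays and 5.64, 5.09 and 5.55 on the control arrays. IAA20, IAA33 and IAA34, which share this feature, were at the background on all 9 arrays, as was IAA31. These 4 genes were not detectable at this signal, which does not show that their RNA was absent.

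With ABA, 1 of the 26 members was called. This was IAA14, described above. The share of members called was 3.85%, against 1.57% of all tested genes (0.837% up and 0.737% down). With 1 gene, this share says nothing about the members as a group. The median member differed by 0.20, against -0.11 for all genes. The ABA and control arrays did not overlap for 7 members (4 higher and 3 lower), against 29.5% of all genes (9.24% higher and 20.3% lower).

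Among the GH3 genes the differences with ABA were 0.33 for GH3.6, 0.81 for GH3.5 and 1.32 for GH3.3, and none passed the test. GH3.2 was near the background in both groups, above it on 1 ABA array and no control array, and gave no usable difference. GH3.3 read 10.39, 11.45 and 11.76 on the ABA arrays, all above the control arrays, and its adjusted p was 0.233 (unadjusted p = 0.0358, limma). GH3.5 read 10.59, 10.82 and 10.75 on the ABA arrays, also above all control arrays (difference 0.81 ± 0.29, adjusted p = 0.185). The NaCl and ABA comparisons share the control arrays, so the values of the GH3 genes in them are not separate evidence of a direction.

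The other 21 Aux/IAA genes differed by between -0.88 (IAA27) and 0.85 (IAA6) with ABA. IAA18 was higher on all ABA arrays (11.39, 11.24 and 11.09) than on the control arrays (11.07, 10.61 and 10.65), by 0.46 ± 0.17 with adjusted p = 0.201. For IAA5, the 95% interval ran from -0.77 to 1.77, and for IAA13 from -1.14 to 0.48.

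**Figure D2:**
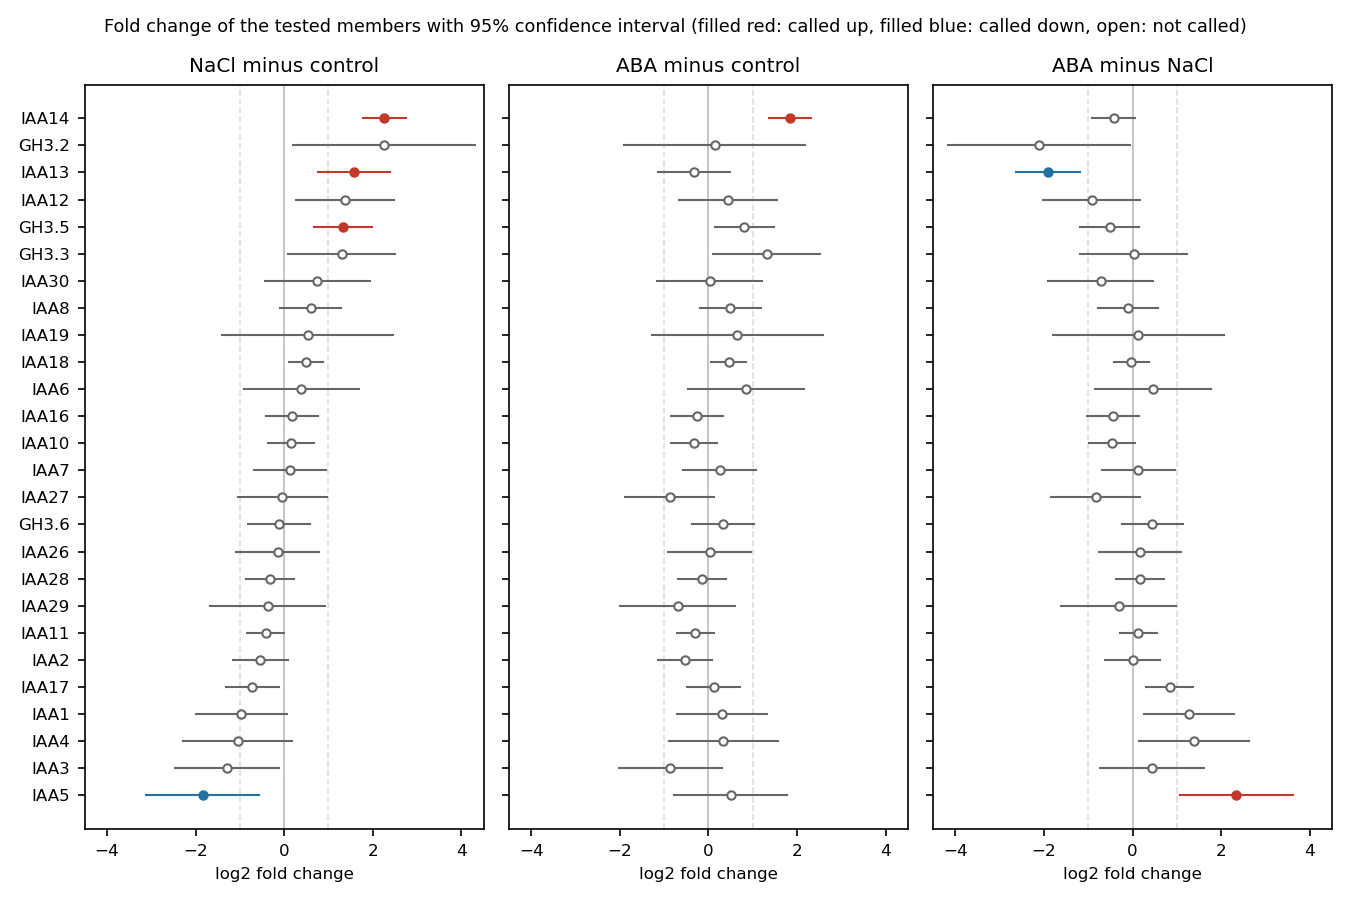
Log2 fold change of the 26 tested members with its 95% confidence interval, for NaCl minus control, ABA minus control and ABA minus NaCl, sorted by the NaCl difference. IAA14, IAA13 and GH3.5 are called up and IAA5 down with NaCl, IAA14 alone is called with ABA, and IAA5 and IAA13 are called between the treatments. Dashed lines mark a 2-fold change.

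The direct comparison of the treatments separated 2 members. IAA5 was 2.34 ± 0.55 higher in ABA seedlings than in NaCl seedlings (SE, n = 3 each, limma adjusted p = 0.0139), with 7.51, 9.51 and 9.44 on the ABA arrays against 6.25, 6.19 and 7.01 on the NaCl arrays. IAA13 was 1.91 ± 0.31 lower in ABA seedlings (adjusted p = 0.00428), with 11.26, 10.79 and 11.52 on the ABA arrays against 12.74, 13.71 and 12.85 on the NaCl arrays. In neither gene did the arrays overlap. The share called was 7.69%, against 20.4% of all tested genes (10.6% up and 9.85% down). Arrays did not overlap for 7 members (3 higher and 4 lower with ABA), against 52.2% of all genes (25.6% higher and 26.6% lower).

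IAA17 was 0.83 ± 0.23 higher with ABA than with NaCl and passed the adjusted p (0.0278) but not the 2-fold limit. IAA1 (1.27 ± 0.44, adjusted p = 0.0553) and IAA4 (1.39 ± 0.54, adjusted p = 0.0765) were near the threshold in the same direction. For IAA14 the difference was -0.43 ± 0.21 (adjusted p = 0.144, 95% interval -0.91 to 0.05). For GH3.3 it was 0.02 (95% interval -1.18 to 1.23), which leaves room for a 2-fold difference either way.

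Several members had more than 1 tested probe, and these did not always give the same result. In a fit of all 30660 kept probes, in which 24.3% of probes were called with NaCl, 9 members had at least 2 tested probes. For IAA2, IAA4, IAA7, IAA17 and IAA26 a second probe was called down with NaCl while the brightest probe was not. IAA7 (AXR2, AT3G23050) is an example. Its brightest probe read 12.63, 13.62 and 13.86 on the NaCl arrays and 13.05, 13.23 and 13.44 on the control arrays, a difference of 0.13. Its second probe read 4.61, 5.39 and 6.03 on the NaCl arrays and 6.88, 7.15 and 7.23 on the control arrays, with no overlap and a difference of -1.74 (limma adjusted p = 0.0136).

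The second probe of IAA2 differed by -2.04 with NaCl (adjusted p = 0.0132), that of IAA4 by -1.81 (0.015), that of IAA17 by -1.65 (0.0019) and that of IAA26 by -1.18 (0.00916). Whether IAA17 counts as lowered by salt therefore depends on the probe. With ABA, none of these probes was called. For IAA4 and IAA17 the second probe was also higher with ABA than with NaCl, by 1.78 and 1.62, and was called, while the brightest probe was not. The second probe of IAA2 lacked NaCl replicate 2 and that of IAA26 lacked control replicate 2, since these spots were marked as faulty.

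The split was found in 5 of the 9 members (55.6%). Over all 9, the median of the other probes minus the brightest was -0.76 in the NaCl difference. The split was also found outside the members, at a lower share. Among all 5835 genes with at least 2 tested probes, the other probes were lower than the brightest in their NaCl difference for 4014 genes, with a median of -0.21 over all of them, and in 12.2% a second probe was called down while the brightest was not. With ABA the other probes were lower for 2990 of the 5835 genes, and such a call was made in 0.291%. Which part of a transcript each probe reads was not analysed here.

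For IAA14 and GH3.5 the probes gave the same calls against control with NaCl. The second probe of IAA14 read 8.78, 9.02 and 9.28 on the NaCl arrays, 7.57, 7.57 and 7.75 on the ABA arrays and 5.77, 6.25 and 6.52 on the control arrays. It rose by 2.85 with NaCl and by 1.45 with ABA, and it was 1.40 lower with ABA than with NaCl (adjusted p = 0.00266), a difference that the brightest probe did not show. The second probe of GH3.5 rose by 1.29 with NaCl, where NaCl replicate 1 was left out as faulty. That of IAA13 had 1.93 ± 1.01 with NaCl and did not pass the test (adjusted p = 0.159), with 8.33 on NaCl replicate 2 and 4.52 and 4.81 on the other NaCl arrays.

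**Figure D3:**
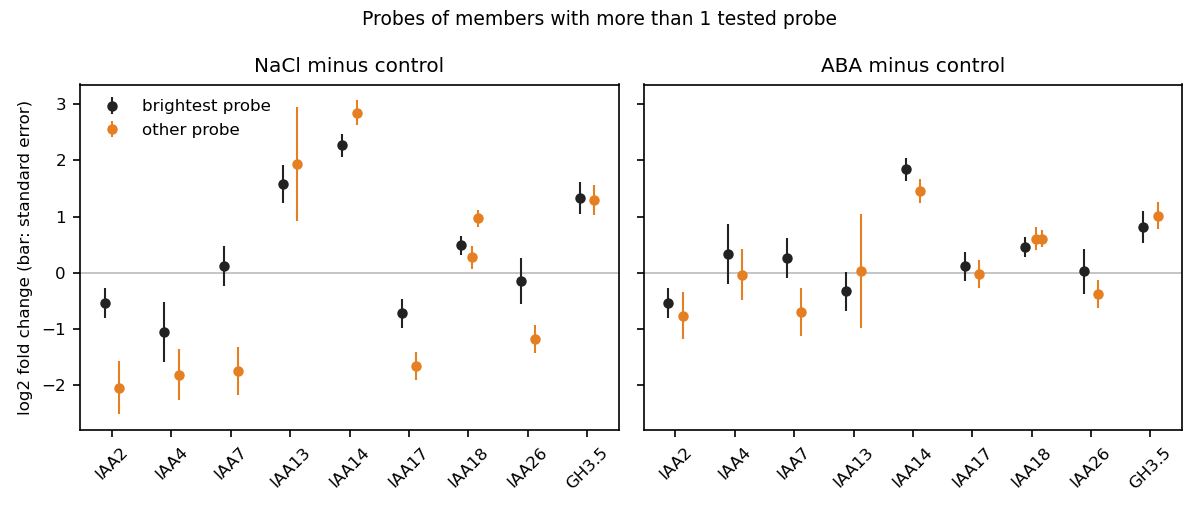
Log2 fold change with its standard error for each tested probe of the 9 members with at least 2 tested probes, for NaCl minus control and ABA minus control (black, brightest probe; orange, other probes). The second probes of IAA2, IAA4, IAA7, IAA17 and IAA26 lie below the brightest probe with NaCl, while both probes of IAA14 and of GH3.5 lie above 0 with either treatment.

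The members varied more between portions than other genes did. Their median replicate SD was 0.45 among NaCl, 0.44 among ABA and 0.38 among control arrays, against 0.29, 0.22 and 0.26 for all genes. In each group the members as a whole were lowest on the array numbered 1. Their median deviation from the group mean was -0.36 on NaCl replicate 1, -0.19 on ABA replicate 1 and -0.34 on control replicate 1, and it was positive on the other 6 arrays. With these 3 arrays left out together, IAA14 still had a difference of 1.80 with ABA but was no longer called (adjusted p = 0.113).

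Some members are neighbours in the genome. In the RefSeq annotation TAIR10.1, IAA3 and IAA17 on chromosome 1, IAA2 and IAA7 on chromosome 3, and IAA14 and IAA1 on chromosome 4 have no other protein-coding gene between them. By their brightest probes, no pair had both of its genes called with salt, while the second probes of IAA2 and IAA7 were both called down. IAA14 rose, and its neighbour IAA1 had a difference of -0.97 that did not pass the test.

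The rest of the auxin pathway was followed in lists of genes by role. Among the receptors and corepressors, none of 6 TIR1/AFB receptors and none of 5 TOPLESS family genes was called with NaCl or with ABA, and their NaCl differences lay between -0.10 and 0.44. Of the 15 ARF genes, ARF11 rose with NaCl, by 1.18 ± 0.21 (limma adjusted p = 0.00423), and none was called with ABA. None of the 13 tested transport genes was called against control. Of all tested genes, 23.3% were called with NaCl and 1.57% with ABA, so the lack of calls with ABA in lists this short says little. In the direct comparison the receptor AFB1, ARF4 and the auxin transporter ABCB19 were lower with ABA than with NaCl, by differences of -1.39, -1.08 and -1.20. These are 16.7% of the receptors, 6.67% of the ARF genes and 7.69% of the transport genes tested. The share of all tested genes was 20.4%, so none of these lists was above it.

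In auxin synthesis, 50% of the tested genes were called with NaCl, against 23.3% of all genes, a difference that was not tested. Of 8 tested genes of the TAA/TAR and YUCCA (YUC) families, which make auxin from tryptophan, YUC8, YUC9 and YUC2 fell with NaCl, by 1.81, 1.52 and 1.30 on the log2 scale, and YUC6 rose by 1.14. YUC9 read 6.73, 6.73 and 7.32 on the NaCl arrays, 4.74, 5.87 and 5.75 on the ABA arrays and 8.56, 8.40 and 8.39 on the control arrays. It was the only listed auxin gene outside the Aux/IAA family called with ABA (7.98-fold lower, adjusted p = 0.00529). Of the 7 tested genes in the list of other GH3 and DAO genes, 2 (28.6%) were called with NaCl. DAO1, which oxidizes auxin, rose by 2.14, and GH3.17, which couples auxin to glutamate, rose by 1.88. Neither was called with ABA.

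The SAUR genes form another family of early auxin response genes and promote cell expansion. The list held the 16 genes with a numbered SAUR symbol in the gene annotation, of which 14 were tested. The shares below are for this list and not for the whole family. With NaCl 4 of the 14 fell, 1 rose and 9 did not pass the test, which is 35.7% called against 23.3% of all genes. SAUR75, counted among the 4, was tested only through its ABA and control arrays. SAUR27, which was not called, was tested only through its ABA arrays. The median difference of the 14 was -0.80, against -0.11 for all genes, and this gap was not tested. SAUR75, which was at the background on all NaCl arrays, was at least 4.14-fold lower, and SAUR15 and SAUR68 fell by 2.87 and 2.59. SAUR36, known for its part in leaf senescence, rose by 2.28. None was called with ABA, where 1.57% of all genes were. The 4 lowered SAUR genes (SAUR63 beside the 3 named) were called higher with ABA than with NaCl, SAUR15 by 1.78, SAUR63 by 2.06, SAUR68 by 2.25 and SAUR75 by at least 3.13-fold. Both comparisons use the same NaCl arrays, so these calls are not separate evidence of a decrease with NaCl. In the direct comparison 35.7% of the 14 tested SAUR genes of the list were called, against 20.4% of all genes.

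**Figure D4:**
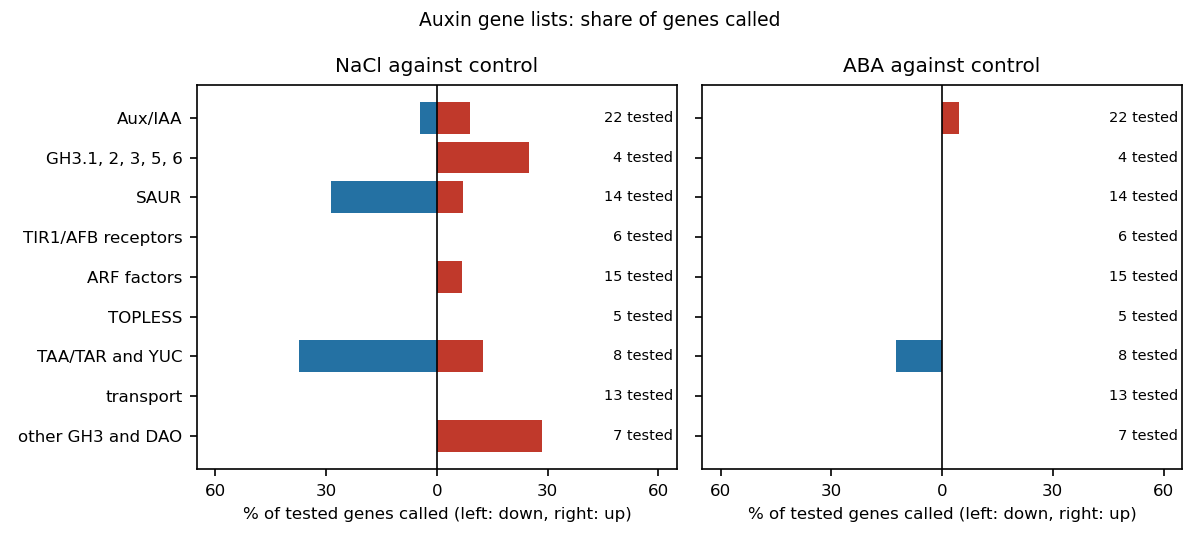
Percent of the tested genes of each auxin list called up (red, to the right) or down (blue, to the left) in NaCl against control and in ABA against control, with the number of tested genes at the right. SAUR and auxin synthesis genes hold most of the decreases with NaCl, and with ABA 1 Aux/IAA gene is called up and 1 synthesis gene down.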

How the data were processed

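RNA from 9 samples was hybridized to one-colour Agilent arrays. The intensity columns come from Agilent Feature Extraction 10.7.3.1, run by the authors, which per the file headers subtracts the background and removes spatial trends without scaling between arrays. The log2 values that the authors deposited in their series table are normalized with the NaCl columns on another distribution, so they served only as an alternative. Deposited marks of 0 or 1 told which spots were above background, non-uniform or outlying.

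Control probes and spots marked non-uniform or outlying were left out. Of 43603 probes, 34392 were matched to 1 locus through RefSeq accessions (gene annotation TAIR10.1), and 3989 of the tested genes kept only a probe name. The log2 intensities were quantile-normalized over 9 arrays. A probe was kept if well above background on all 3 arrays of a group, and the brightest kept probe stood for its gene. Groups were compared with limma 3.58.1 (R 4.3.3 with version 1.17.8 of data.table) in 1 fit of 9 arrays with no block, with 2.05 prior degrees of freedom, and p-values were adjusted over all 23058 genes by Benjamini-Hochberg. The script was tested on simulated data. Plots used matplotlib 3.10.9 with pandas 2.3.3 under Python 3.11.15. Since 3 against 3 arrays have 10 splits in all, no permutation p can be under 0.1. The number of arrays limits the precision.

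Every member is accounted for. Values per array are given for members called in any comparison and for those with the highest and lowest mean signal, and up to 3 called genes per list are named from other lists. Other members given per array (IAA7, IAA13 and IAA14 second probes, IAA18, IAA19, IAA30, GH3.3), the floral marker PI and genes named for other reasons were chosen after their values were seen. Members and lists were chosen with earlier results of these data known. The SAUR list holds the genes whose symbol in the reference table names the family. The 26 alternatives covered scaling, background, probe choice, filters, fit, test and leaving out each array, and the fit of all probes and the removal of the 3 arrays numbered 1 were added after the data were seen.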

Additional observations from a re-analysis of the deposited data

Results flagged for a closer look

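IAA5 and IAA13 differed between ABA and NaCl seedlings by the direct test, in which treatment, slide and scan session cannot be told apart. IAA5 was 2.34 higher on the log2 scale in ABA than in NaCl seedlings, and IAA13 had a difference of -1.91 between ABA and NaCl seedlings. Both were called by limma in each of the 9 fits that left out 1 array. IAA5 was not called by the methods' t-test, with or without adjustment (adjusted p = 0.145). IAA13 was not called with the authors' series table (-0.94, adjusted p = 0.215), with the mean of the kept probes (0.13) or with the adjusted t-test (0.0652).

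GH3.1, which the comparisons above do not include, gave a signal above the background on 2 of 3 NaCl arrays and on none of the control arrays. Its log2 signal was 5.92, 4.05 and 3.71 on the NaCl arrays and 1.61, 1.73 and 1.59 on the control arrays. The NaCl mean was 1.8 times the lowest signal called above background on the control arrays. That ratio is not a firm lower limit, since 1 NaCl array was itself not above background, and it was 1.12 without NaCl replicate 1. No test was run for this gene.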

How the results depend on the processing

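No called member changed direction under any of the 26 alternatives. IAA14 stayed called with NaCl in all 26, GH3.5 in 24, IAA13 in 23 and IAA5 in 18, and IAA14 stayed called with ABA in 24. IAA5 lost its NaCl call with scaling to the 75th percentile (adjusted p = 0.0517), normexp (0.0612) and no filter on dim probes (0.0539), IAA13 and GH3.5 lost theirs with the authors' series table (0.0743 and 0.246), and IAA5, IAA13 and GH3.5 lost theirs with the methods' t-test after Benjamini-Hochberg adjustment, as did IAA14 with ABA (0.279). In 96 further instances a member that was called under neither setting changed sign. The causes of the changes below were not tested.

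With NaCl against control, 3 members were called up and 1 down. The up count was 1 with the authors' series table, 5 with no filter on dim probes, 6 with slide as a random block and 1 with the methods' t-test after Benjamini-Hochberg adjustment. The down count was 0 with 75th percentile scaling and with that adjusted t-test, 2 with no scaling, with the mean of the kept probes and without the 3 arrays numbered 1, 3 with slide as a block and with array weights, and 10 with the series table. Leaving out 1 array at a time gave 3 to 4 up and 0 to 3 down.

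With ABA against control, the 1 member called up became 3 with no scaling, 2 with slide as a block, and 0 with the adjusted t-test and without the 3 arrays numbered 1. That t-test called 0 genes of all with ABA, where limma called 363 and where 1266 passed an unadjusted p and 2-fold.

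With ABA against NaCl, the 1 member called up became 5 with no scaling, 11 with the series table, 2 with normexp, with probes above background on all 9 arrays, with the trend and robust fit and with no fold threshold, 3 with the mean of the kept probes, with slide as a block, with array weights and without the 3 arrays numbered 1, and 0 with the t-test, adjusted or not. Leaving out 1 array at a time gave 1 to 2. The 1 called down became 0 with the series table, the mean of the kept probes and the adjusted t-test, 3 with no filter and 2 with slide as a block.

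The scale of the arrays moved all genes: the median NaCl difference of all genes was -0.30 with no scaling and -0.95 with the series table, against -0.11. Of the genes called with NaCl, 42.6% were up, against 32% with no scaling and 8.76% with the series table. With ABA, 53.2% were up, against 95.6% with no scaling. With ABA against NaCl, 51.7% were up, against 90.8% with no scaling and 92.7% with the series table. GH3.5 differed by 0.41 and IAA14 by 1.44 with NaCl in the series table. GH3.2 differed by 0.73 with NaCl after normexp.

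Over all tested genes no pairing by replicate number was seen. Same-numbered arrays correlated between -0.28 and 0.23 in their deviations from the group means, and 2 of 9 pairs were above 0.1. Arrays of other numbers correlated between -0.32 and 0.29, and 6 of 18 pairs were above 0.1. The members were lowest on the array numbered 1 in each group, as described above, and pairing within the members alone was not tested. With the number as a replicate block, 4 members were called up and 2 down with NaCl, 1 up with ABA and 3 up with ABA against NaCl, and 210 genes of all were called with ABA against 363. Each slide held 1 group, so no value within a slide could be had. Signals near the background limit GH3.1, GH3.2 and IAA30.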
